A study of Oryzias latipes with 12 samples.

Results

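Brains of pd1 knockout medaka kept under long days were compared with wild-type brains of the same photoperiod across all measured genes. Medaka (Oryzias latipes) is a small freshwater teleost that breeds seasonally, and the knocked-out gene is called pd1 in the sample labels and phod1 in the series text. The comparison used 6 of the 12 RNA libraries of the series, 3 of wild type (replicates 13, 14 and 15) and 3 of the knockout (replicates 13, 14 and 16). All 6 came from fish moved from short to long days and sampled 12 days later at hour 12 of the clock. The other 6 libraries, again 3 of wild type and 3 of the knockout, were taken at the same hour under short days before the move. Each library held RNA of the ventral telencephalon, hypothalamus and pituitary together. The sources used here do not give the knockout allele, the strain or the age of the fish. Because neither name of the gene matched a symbol or synonym in the gene table, the loss of its transcript was not checked here.

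Many temperate vertebrates read day length in the brain and pass it to the pituitary. In the pituitary, gonadotropes make follicle-stimulating hormone and luteinizing hormone, which share an alpha subunit and each carry their own beta subunit, and somatotropes make growth hormone under the control of growth hormone-releasing hormone. In fish and birds the long-day state is tied to gonadotropin output, to local thyroid hormone activation by deiodinases and to the circadian clock, which measures the light phase. These systems are described below beside the genes that moved most. Gene functions are given as background and are known mostly from mammals.

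Of 26663 genes in the table, 18218 reached a TPM (a length-scaled share of all transcripts) of at least 1 in at least 3 of the 12 libraries and were tested with limma on log2(TPM + 1). Under long days 117 genes passed a Benjamini-Hochberg adjusted p of 0.05, which is 0.642% of those tested. Of these, 86 (0.472%) were higher and 31 (0.17%) were lower in the knockout. With median-ratio scaling between libraries 107 genes passed, 63 higher and 44 lower, so the excess of higher calls was smaller under that scaling. Of all tested genes, called or not, 58.97% were higher in the knockout. The median difference over all tested genes was 0.04 on the log2 scale and fell to 0.00 with that scaling. Without 1 long-day library the count was 43 to 91, at 51, 51 and 43 without wild-type replicates 13, 14 and 15 and at 91, 43 and 57 without knockout replicates 13, 14 and 16. Before adjustment, 2051 genes had a p under 0.05. The long-day groups did not overlap in any of the 117 called genes, but the same held for 2873 (15.8%) of all tested genes. The called genes had a median absolute difference of 1.01 on the log2 scale, and 59 of them differed by at least 1, 43 upward and 16 downward. A symbol other than a LOC number was available for 58 called genes, 44 higher and 14 lower. By class, 105 of 17265 tested protein-coding genes (0.608%) and 12 of 918 tested long noncoding RNAs (1.31%) were called.

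**Figure D1:**
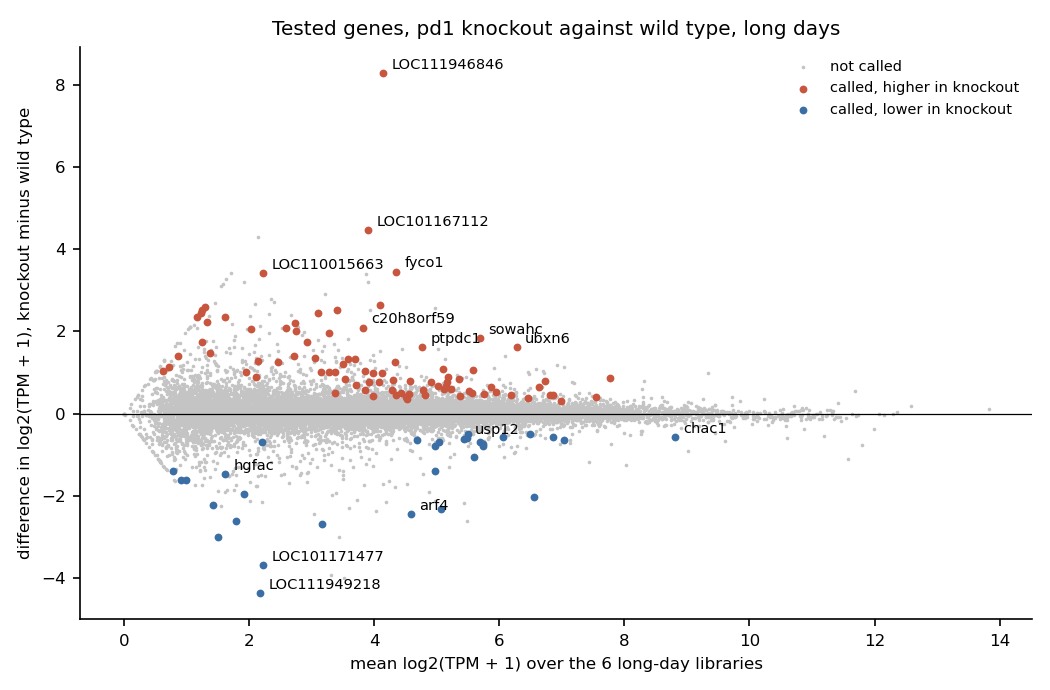
Each point is 1 tested gene, placed by its mean log2(TPM + 1) over the 6 long-day libraries (horizontal) and by its difference in log2(TPM + 1), knockout minus wild type (vertical). The 86 called genes that were higher are red, the 31 that were lower are blue, and LOC111946846 stands alone at a difference of 8.28.

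The long-day libraries sorted by genotype. Across genes, log2(TPM + 1) of 2 libraries had a Pearson correlation of 0.974 to 0.980 within a genotype and of 0.968 to 0.974 between genotypes. On the first principal component, with 32.8% of the variance, wild-type libraries lay between -23.9 and -21.9 and knockout libraries between 18.8 and 28.9. Neuronal and pituitary markers were present in every library. The synaptic gene snap25 stood at 2209 to 2569.5 TPM, the glutamatergic marker slc17a6 at 447 to 524 TPM and the shared gonadotropin subunit cga at 1130.4 to 1991 TPM. The retinal gene rho and the pineal gene aanat2 were listed at 0 in all 6 libraries, and the muscle gene acta1 did not exceed 1.84 TPM. TPM keeps no read counts, so depth is unknown and the number of libraries limits the precision. Whether the libraries came from different fish is not stated, and p-values then measure only the spread between these samples.

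The most extreme genes were present in 1 genotype and listed at or near 0 in the other. LOC111946846, a protein-coding gene without a symbol, was listed at 0 in all 3 wild-type libraries and at 359.65, 245 and 338 TPM in knockout replicates 13, 14 and 16 (adjusted p = 4.64e-11). It was also at 0 in every short-day wild-type library and at 195, 207 and 151 TPM in the short-day knockout libraries. All 6 knockout libraries of the series therefore lay far above all 6 wild-type libraries for this gene. The long noncoding RNA LOC101167112 stood at 2.56, 1.91 and 2.17 TPM in wild type and at 74.0, 68.3 and 66.4 TPM in the knockout, a ratio of means of 31.4 (log2 difference 4.46, SE 0.37, adjusted p = 0.000460). LOC111946676, also protein-coding, was listed at 0 in wild type and at 6.04, 5.96 and 3.57 TPM in the knockout (adjusted p = 0.0411). Its groups did not overlap, but its levels were low and its call was lost without any 1 of the 6 long-day libraries, with adjusted p up to 0.129. Smaller rises were those of the noncoding RNAs LOC111947827, from 5.93 ± 1.45 to 42.7 ± 12.3 TPM, and LOC111946736, from 3.75 ± 2.18 to 25.5 ± 8.50 TPM (mean ± SD, n = 3 libraries per group).

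Losses of the same kind were seen in the opposite direction. LOC111949218 stood at 16.2, 21.3 and 21.8 TPM in wild type and was listed at 0 in all 3 long-day knockout libraries (adjusted p = 0.0122). In the short-day knockout it was at 9.10, 0 and 7.45 TPM, so its absence was not shared by all knockout libraries. Its call was lost without wild-type replicate 14 (adjusted p = 0.0578), wild-type replicate 15 (adjusted p = 0.0637) or knockout replicate 14 (adjusted p = 0.0574). LOC101171477 fell from 17.8, 14.2 and 15.4 TPM in wild type to 0.53, 0.17 and 0.26 TPM in the knockout (log2 difference -3.67, SE 0.66, adjusted p = 0.0379). Its short-day knockout libraries were split, at 0.50, 14.4 and 12.5 TPM. The noncoding RNA LOC110013896 went from 7.21, 7.14 and 6.73 TPM to a listed 0 in each long-day knockout library (adjusted p = 0.0411), with 0, 5.62 and 0 TPM in the short-day knockout. Further falls were those of LOC101173929, from 74.6 ± 8.03 to 14.4 ± 3.39 TPM, LOC111946738, from 22.0 ± 3.17 to 3.77 ± 4.62 TPM, and LOC101158597, whose knockout libraries were at 1.81, 0 and 0 TPM against 4.66, 9.72 and 9.47 TPM in wild type. LOC101171477, LOC110013896 and LOC101173929 lost their calls without any 1 of the 6 long-day libraries (adjusted p up to 0.124, 0.131 and 0.103). LOC111946738 and LOC101158597 lost theirs without any long-day library other than knockout replicate 13, with adjusted p up to 0.146 and 0.152.

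Among genes with a symbol, fyco1 had the largest rise. The autophagy gene fyco1 (gene 101174497), an adaptor that links autophagosomes to microtubule motors, stood at 4.27, 5.84 and 5.54 TPM in wild type and at 70.7, 65.5 and 63.8 TPM in the knockout. All knockout libraries thus lay far above all wild-type libraries, and the ratio of means was 12.8 (log2 difference 3.45, SE 0.57, adjusted p = 0.0262). Its SE reflects the short-day knockout, whose libraries were at 5.45, 33.5 and 55.6 TPM and share the estimate of the spread. With the 2 long-day groups fitted alone the adjusted p was 3.20e-05. A cofactor of the segregase VCP, ubxn6 (gene 101158933), was at 43.3, 46.5 and 40.5 TPM in wild type and at 150.3, 124 and 131 TPM in the knockout (log2 difference 1.61, SE 0.26, adjusted p = 0.0226). The short-day knockout libraries of this gene were spread in the same order as those of fyco1, at 39.4, 80.3 and 105.6 TPM. The deubiquitinase gene usp12 (gene 101161517) fell from 54.8, 54.1 and 52.7 TPM to 34.8, 34.8 and 36.1 TPM (log2 difference -0.60, SE 0.07, adjusted p = 0.00333), with a short-day difference of -0.55 (adjusted p = 0.00674). The ubiquitin ligase gene ubr3, an example chosen after its values were seen, rose from 9.43 to 15.8 TPM on average (adjusted p = 0.0499). That was the highest adjusted p of all called genes, and leave-out values are not given for ubr3. The calls of fyco1 and ubxn6 were each lost without any 1 of the 6 long-day libraries (adjusted p up to 0.0962 and 0.0909), whereas usp12 kept its call without each of them.

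The genes sowahc and c20h8orf59 rose by several fold in both photoperiods. The ankyrin-repeat gene sowahc (gene 101163369) stood at 25.4, 28.8 and 25.2 TPM in wild type and at 80.1, 85.7 and 133.9 TPM in the knockout (log2 difference 1.84, SE 0.21, adjusted p = 0.00333). Under short days the same gene differed by 2.16 (adjusted p = 0.00121). The open reading frame gene c20h8orf59 (gene 101167830) was at 6.81, 7.16 and 4.00 TPM in wild type and at 25.5, 38.3 and 22.7 TPM in the knockout (log2 difference 2.09, SE 0.21, adjusted p = 0.00160). Its short-day difference was 2.73 (adjusted p = 0.000284), and the groups overlapped in neither photoperiod. The transmembrane protein gene tmem45a rose from 3.95 ± 0.90 to 18.2 ± 2.47 TPM (log2 difference 1.97, SE 0.38, adjusted p = 0.0449), and its call was lost when any 1 long-day library was left out (adjusted p up to 0.151). Both sowahc and c20h8orf59 kept their calls without each long-day library.

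**Figure D2:**
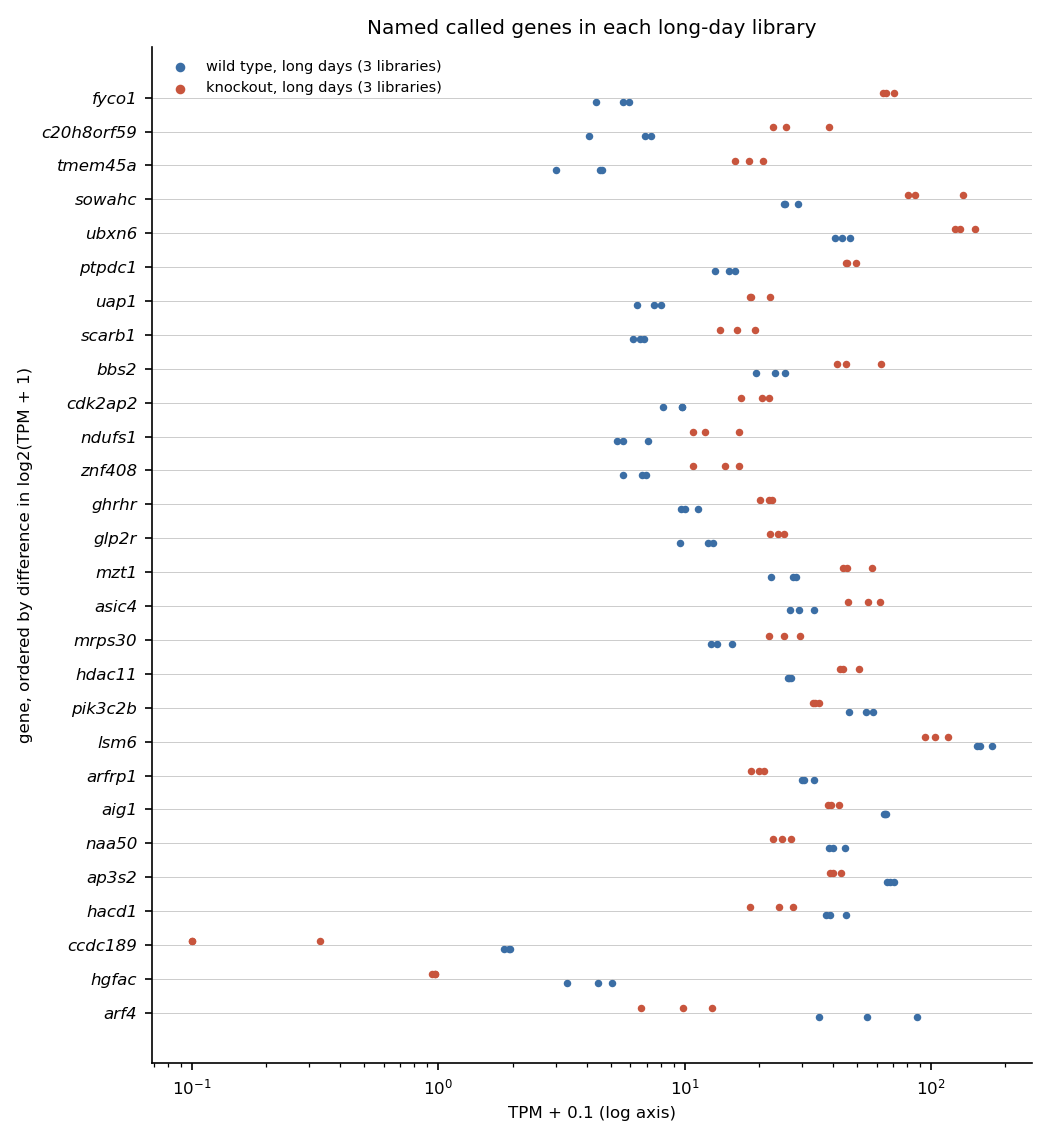
Each row is 1 of 28 named called genes with a symbol and a difference of at least 0.6 in either direction, ordered by its difference in log2(TPM + 1), and each point is 1 long-day library (TPM + 0.1, log axis), wild type in blue and knockout in red. In every row the 3 red points lie on 1 side of the 3 blue points, which the choice of genes fixed in advance. All 117 called genes separated the groups, against 15.8% of all tested genes. Rows run from fyco1 at the top to arf4 at the bottom.

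Rises were called for genes of varied function, asic4, hdac11 and ptpdc1 among them. Transcripts of asic4, an acid-sensing ion channel family member of neurons, rose from 26.7, 33.2 and 29.1 TPM to 45.8, 61.9 and 55.1 TPM (log2 difference 0.84, SE 0.11, adjusted p = 0.00821). The short-day levels of asic4 did not show this, at 26.1 to 29.8 TPM in wild type and 25.4 to 27.96 TPM in the knockout. The histone deacetylase gene hdac11 went from 26.1, 27.0 and 26.4 TPM to 42.7, 50.8 and 43.7 TPM (log2 difference 0.76, SE 0.09, adjusted p = 0.00531). The phosphatase-domain gene ptpdc1 went from 13.1, 15.9 and 15.1 TPM to 45.2, 49.5 and 45.5 TPM (log2 difference 1.61, SE 0.21, adjusted p = 0.00646). For hdac11 and ptpdc1 the short-day differences were 0.00 and 0.13, with adjusted p of 0.992 and 0.841, but the test of the difference between photoperiods did not pass for either gene (adjusted p = 0.132 and 0.182). Called rises were also those of cdk2ap2, a cyclin-dependent kinase-associated protein, from 9.11 ± 0.90 to 19.7 ± 2.62 TPM, and wdr41, a partner of the C9orf72 complex in autophagy, from 27.2 ± 0.71 to 41.8 ± 4.50 TPM. The calls of these 5 genes held without each long-day library. The gene glp2r, a receptor for a glucagon-like peptide, rose from 11.6 ± 1.83 to 23.6 ± 1.45 TPM, and the J-domain co-chaperone gene dnajc25 from 19.1 ± 0.93 to 26.9 ± 1.54 TPM. The gamma-tubulin complex gene mzt1 and the BBSome gene bbs2, which serves ciliary transport, rose from 26.0 ± 3.28 to 48.8 ± 7.6 TPM and from 22.6 ± 3.08 to 49.5 ± 11.1 TPM, respectively. The calls of glp2r, dnajc25, mzt1 and bbs2 were lost without any 1 long-day library (adjusted p up to 0.152, 0.141, 0.136 and 0.164).

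Called genes such as scarb1 and uap1 rose, while chac1, hacd1 and hgfac fell. The lipoprotein receptor gene scarb1 rose from 6.49, 6.75 and 6.09 TPM to 13.8, 16.2 and 19.2 TPM (log2 difference 1.21, SE 0.17, adjusted p = 0.00868). The gene for the enzyme that makes UDP-N-acetylglucosamine, uap1, rose from 7.21 ± 0.82 to 19.7 ± 2.15 TPM (adjusted p = 0.00881). Both calls held without each long-day library. The complex I subunit gene ndufs1 rose from 5.91 ± 0.95 to 13.02 ± 3.02 TPM (adjusted p = 0.0262) and was the only 1 of 50 tested oxidative phosphorylation genes to pass. At a background of 0.642% of genes called, a single call in a list of this size, here and in the lists that follow, is no result about the list. The list as a whole had a median of 0.01, and the ndufs1 call was lost without wild-type replicate 13 (adjusted p = 0.0944), wild-type replicate 15 (adjusted p = 0.105) or knockout replicate 16 (adjusted p = 0.0694). The mitochondrial ribosomal gene mrps30 rose from 13.9 ± 1.49 to 25.4 ± 3.77 TPM (adjusted p = 0.0411), the 1 call among 75 tested members of its list, which was lost without any long-day library other than knockout replicate 13 (adjusted p up to 0.136). In the other direction chac1, which degrades glutathione, fell from 517, 612 and 512 TPM to 346, 377 and 376 TPM (log2 difference -0.57, SE 0.10, adjusted p = 0.0322). Falls were also called for hacd1, a dehydratase of very long-chain fatty acid elongation, from 40.4 ± 4.19 to 23.3 ± 4.66 TPM, and for hgfac, a serine protease that activates hepatocyte growth factor, from 4.18 ± 0.89 to 0.86 ± 0.02 TPM. The chac1 and hgfac calls were lost without any 1 long-day library (adjusted p up to 0.0935 and 0.139), and that of hacd1 without any but knockout replicate 16 (adjusted p up to 0.125).

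Other genes that fell included arf4, sbds and naa50. The small GTPase gene arf4 (gene 101161881), which acts at the Golgi, stood at 34.9, 87.8 and 54.6 TPM in wild type and at 9.69, 12.8 and 6.55 TPM in the knockout (log2 difference -2.44, SE 0.36, adjusted p = 0.0126). The wild-type libraries varied among themselves, yet the lowest was above the highest knockout library, as it was under short days (difference -2.90, adjusted p = 0.00735). It was the 1 called gene among 86 tested Rab and Arf GTPases. The trans-Golgi GTPase gene arfrp1 fell from 31.2 ± 1.96 to 19.7 ± 1.20 TPM, the sorting adaptor gene ap3s2 from 68.1 ± 2.14 to 40.5 ± 2.06 TPM and the phosphoinositide kinase gene pik3c2b from 52.9 ± 6.18 to 33.9 ± 0.845 TPM. The ribosome maturation gene sbds fell from 143, 136 and 143 TPM to 93.4, 96.8 and 92.4 TPM (log2 difference -0.57, SE 0.07, adjusted p = 0.00646), with levels of 136 to 164 TPM in all 6 short-day libraries. The acetyltransferase gene naa50 fell from 40.9 ± 3.15 to 24.8 ± 2.12 TPM and the spliceosomal gene lsm6 from 163 ± 11.9 to 105 ± 11.3 TPM. The fatty acid ester hydrolase gene aig1 fell from 64.8 ± 0.74 to 39.7 ± 2.05 TPM, and ccdc189 fell from 1.74, 1.85 and 1.84 TPM to 0, 0 and 0.23 TPM. The calls of sbds and naa50 held without each long-day library, and lsm6 lost its call without knockout replicate 14 (adjusted p = 0.0552). The calls of ap3s2 and aig1 were lost without any 1 long-day library (adjusted p up to 0.140 and 0.105). For arfrp1 the call held without knockout replicate 13 alone (adjusted p up to 0.119), for pik3c2b without wild-type replicate 13 alone (adjusted p up to 0.133), and for ccdc189 without knockout replicates 13 and 16 (adjusted p up to 0.0785). For arf4 the call was lost without wild-type replicate 14 (adjusted p = 0.0529), wild-type replicate 15 (adjusted p = 0.0617) or knockout replicate 16 (adjusted p = 0.0549).

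A further 24 called genes with a symbol were each higher in the knockout, by 0.36 to 0.88 on the log2 scale. They included, as examples chosen after their values were seen, aldh9a1, an aldehyde dehydrogenase, from a mean of 162 to 296 TPM, and polr3gl, a subunit of RNA polymerase III, from 80.0 to 141 TPM. The fructose-phosphorylating khk went from 11.9 to 21.2 TPM, the phospholipid transfer protein gene pltp from 45.1 to 63.2 TPM and stxbp5l, a tomosyn family regulator of vesicle release, from 50.5 to 73.1 TPM. A further 47 called genes carried LOC numbers alone, 36 of them higher and 11 lower.

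In the pituitary list, which holds hormones, lineage factors and granule proteins, 1 of 22 tested members rose and none fell, with a median of -0.03. That gene was ghrhr (gene 101155841), the receptor through which growth hormone-releasing hormone acts on somatotropes. It stood at 9.55, 11.2 and 9.91 TPM in wild type and at 20.1, 22.4 and 21.9 TPM in the knockout (log2 difference 1.00, SE 0.16, adjusted p = 0.0210). The groups did not overlap, and the short-day difference was 0.70 (adjusted p = 0.0874). Its call was lost without wild-type replicate 13 (adjusted p = 0.0801), wild-type replicate 15 (adjusted p = 0.0855), knockout replicate 14 (adjusted p = 0.0935) or knockout replicate 16 (adjusted p = 0.0694). The next gene of the list was pou1f1, the lineage factor of somatotropes, lactotropes and thyrotropes, at 9.75, 10.8 and 13.3 TPM in wild type and 18.8, 16.03 and 22.6 TPM in the knockout. Its difference of 0.71 did not pass (adjusted p = 0.0635). Over the whole list 10 members were higher and 12 lower, and 5 reached an unadjusted p under 0.05 by limma. Of all 18218 tested genes 2051 did so, which is the background for such counts in later lists too. In bulk tissue, more or fewer cells of a type cannot be told apart from more or less RNA per cell. The hypothalamic peptide gene ghrh was at 5.41 to 9.61 TPM in wild type and 9.07 to 14.95 TPM in the knockout, with overlapping groups. The rule for named genes selected neither pou1f1 nor ghrh, and levels of growth hormone itself are not given, so these examples do not describe somatotropes. In the gene order described below, ghrhr is a direct neighbour of fyco1.

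Genes of the gonadotropic axis carry the long-day signal from the brain to the gonads. Of 14 tested, 0 passed by limma and 1, lhb, reached an unadjusted p under 0.05, with a list median of -0.11. The FSH beta subunit gene fshb (gene 105356452) stood at 983, 897 and 1083 TPM in wild type and at 602, 635 and 625 TPM in the knockout. Every knockout library was below every wild-type library, and the ratio of means was 0.629, yet the difference of -0.66 (SE 0.38) did not pass (adjusted p = 0.567). That SE takes in short-day wild-type replicate 3, which held 31.4 TPM against 122 and 115 TPM in the other libraries of its group. Without that library the adjusted p was 0.0131, and with the 2 long-day groups fitted alone it was 0.0198. Those were the only 2 of 16 alternative settings in which fshb passed. Without 1 long-day library its adjusted p reached 0.750, and with the replicate number as a block it was 0.700. The LH beta subunit gene lhb (gene 100125483) was at 212, 244 and 269 TPM in wild type and at 582, 255 and 479 TPM in the knockout. Its groups overlapped through knockout replicate 14, and the difference of 0.78 did not pass (adjusted p = 0.256). The shared subunit gene cga ranged from 1256 to 1732 TPM in wild type and from 1130.4 to 1991 TPM in the knockout (adjusted p = 0.923). Brain aromatase, cyp19b, was at 778 ± 115 and 689 ± 61.2 TPM (adjusted p = 0.776), and gnrh1, the releasing hormone gene, at 43.4 ± 4.20 and 36.9 ± 3.20 TPM (adjusted p = 0.698). The receptor genes pgr and esr1 had adjusted p of 0.875 and 0.980.

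**Figure D3:**
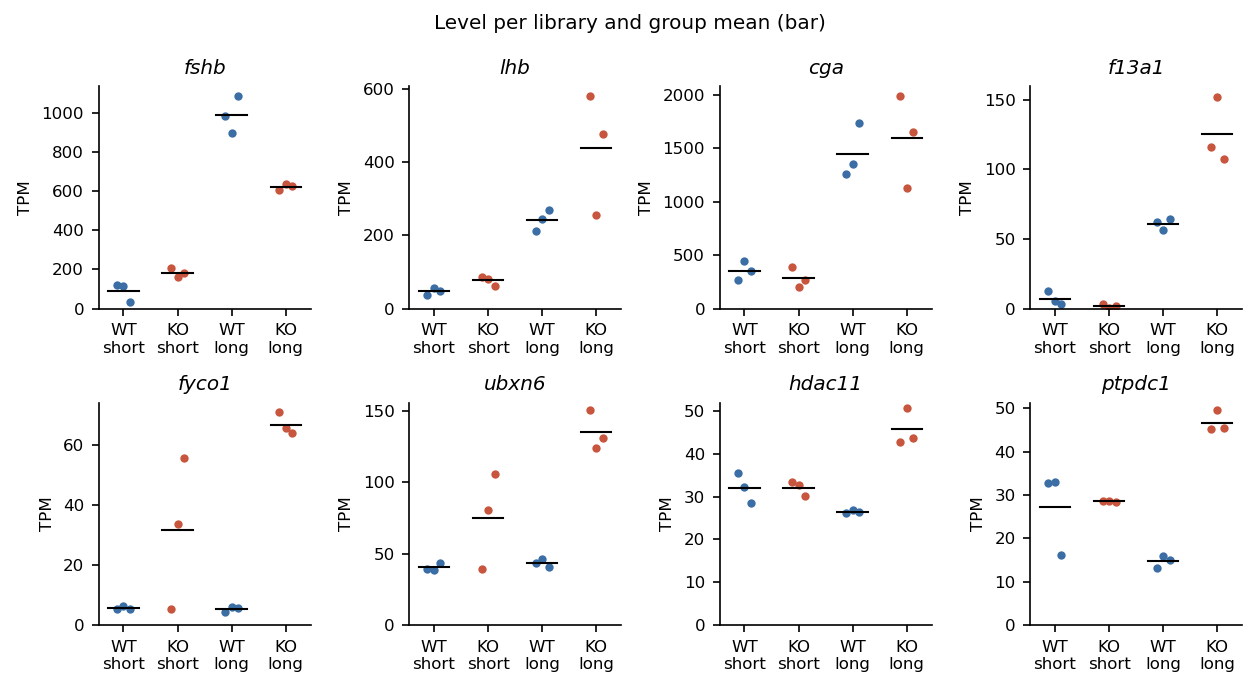
TPM of 8 genes in each of the 12 libraries (points; wild type blue, knockout red) with the group mean as a bar, for short and long days. For fshb the long-day knockout libraries, at 602 to 635 TPM, lie below all long-day wild-type libraries, while for fyco1 and ubxn6 the short-day knockout libraries are spread between the levels of wild type and of the long-day knockout.

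Thyroid, opsin and clock genes gave 0 calls by limma under long days, and 0 of their members reached an unadjusted p under 0.05. Of 13 tested genes of the photoperiodic thyroid axis and the non-visual opsins, 6 were higher and 7 lower, with a median of -0.05. The activating deiodinase gene dio2 was at 8.41 ± 1.76 TPM in wild type and 8.00 ± 0.32 TPM in the knockout (adjusted p = 0.981), and the inactivating dio3 was at 10.2 ± 1.25 and 9.89 ± 2.10 TPM (adjusted p = 0.934). Over 11 core clock genes the median was -0.01. The light-responsive clock gene per2 had the lowest p of that list, at 23.6 ± 3.66 and 28.6 ± 4.35 TPM (adjusted p = 0.484). A difference that misses the threshold with 3 libraries a side does not show that levels were equal.

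Other genes reported whatever their result varied widely in spread. The factor XIII subunit gene f13a1 stood at 62.4, 56.5 and 64.4 TPM in wild type and at 116, 152 and 107.6 TPM in the knockout, without overlap. Its difference of 1.01 (SE 0.44) did not pass (adjusted p = 0.411), although with the long-day groups fitted alone the adjusted p was 0.0210. That was the only 1 of 16 alternative settings in which f13a1 passed, and without 1 long-day library the adjusted p reached 0.684. The gene dapl1 showed a similar pattern, at 49.9, 36.2 and 36.2 TPM against 80.6, 74.4 and 112.3 TPM (adjusted p = 0.261, and 0.0480 with the long-day groups alone). It too passed in no other setting, with an adjusted p up to 0.474 without 1 long-day library. The pituitary precursor gene pomc ranged from 2689 to 7002 TPM in wild type and from 2576 to 5991 TPM in the knockout (adjusted p = 0.869). For the haem gene fech, the retinoic acid-degrading cyp26b1 and the interferon-induced rsad2 the adjusted p was 0.815, 0.792 and 0.977.

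Across 48 lists of pathways and cell types, 9 held a called gene, 10 called genes in all, and 107 called genes were on none of the lists. The share of all tested genes on the lists was not computed. These counts therefore do not show that called genes were rarer or more frequent on the lists than elsewhere. Several lists nevertheless had most of their members on 1 side. Where groups are described below as not overlapping, the same held for 15.8% of all tested genes taken singly. That share is no background for summed levels of a list. Sums also did not overlap for radial glial genes, at 8009 to 8409 TPM in wild type and 7447 to 7927 TPM in the knockout. The same held for microglia and leukocytes, at 328 to 445 and 249 to 292 TPM, and for further lists not described. In each of the following lists, 0 members passed by limma over all tested genes. The members named were chosen after their values were seen, and the values quoted are to be read against a median of 0.04 over all tested genes, of which 58.97% were higher. Counts at an unadjusted p under 0.05 are likewise to be read against 2051 of 18218 tested genes. With median-ratio scaling 9131 of 18218 genes were higher, as were 12 of the 15 endothelial and pericyte genes, 11 of the 15 myelin genes and 10 of the 11 retinoic acid genes described below.

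Immediate early genes, which neurons transcribe within minutes of stimulation, had the highest list median. Of 15 tested, 11 were higher and 4 lower in the knockout, with a median of 0.43, and 10 reached an unadjusted p under 0.05. Over all tested genes, 2051 of 18218 did so. Summed over the list, their level was 413 to 446 TPM in the wild-type libraries and 495 to 648 TPM in the knockout libraries. The transcription factor gene egr2 was at 3.60, 3.56 and 3.41 TPM in wild type and at 8.39, 6.41 and 7.36 TPM in the knockout (difference 0.88, adjusted p = 0.0782). The activity-regulated npas4 was at 22.5, 29.0 and 25.6 TPM against 41.9, 32.0 and 60.3 TPM (difference 0.74, adjusted p = 0.304), and ier2 at 18.8, 17.7 and 23.8 TPM against 33.95, 32.0 and 49.6 TPM (difference 0.89, adjusted p = 0.209). Knockout replicate 14 was the lowest knockout library for these 3 genes. The highest of the leave-out medians was 0.61, without knockout replicate 14, and the lowest was 0.34, without knockout replicate 16. The list's short-day median, from libraries not shared with this comparison, was 0.49.

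Cholesterol synthesis genes had the lowest median, -0.30, with 19 of 21 tested members lower and 10 at an unadjusted p under 0.05. That p was reached by 2051 of 18218 tested genes. The list's summed level was 510.4 to 588 TPM in wild type and 412 to 475 TPM in the knockout, without overlap. The desaturase gene sc5d was at 22.2, 21.7 and 21.8 TPM in wild type and at 12.8, 14.9 and 12.9 TPM in the knockout (difference -0.66, adjusted p = 0.0816). The sterol oxidase gene msmo1 was at 76.9, 87.7 and 84.5 TPM against 55.4, 58.2 and 32.8 TPM (difference -0.80, adjusted p = 0.272), and mvd, of the mevalonate pathway, at 16.8, 21.6 and 17.3 TPM against 11.4, 13.6 and 9.64 TPM (difference -0.64, adjusted p = 0.131). The groups of all 3 genes were separate, as they were for 15.8% of all tested genes. The regulators srebf2 and scap, with differences of -0.05 and -0.02, lay close to 0, while pmvk was higher at 0.34. Under short days the list median was -0.12.

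Vascular and retinoid lists lay on the higher side. Of 15 endothelial and pericyte genes, 13 were higher and 2 lower, with a median of 0.26 and differences from -0.42 to 0.57. Their summed level was 182 to 186 TPM in wild type and 213 to 238 TPM in the knockout. The tight junction gene cldn5 was at 30.3, 28.9 and 26.1 TPM against 40.4, 40.8 and 42.4 TPM (difference 0.52, adjusted p = 0.143), and the endothelial receptor gene kdr at 12.5, 14.02 and 12.7 TPM against 18.3, 15.99 and 16.4 TPM (difference 0.35, adjusted p = 0.394). Short-day values gave a median of 0.12 for this list. Of 11 retinoic acid genes, 10 were higher, with a median of 0.24. The retinoic acid-degrading cyp26a1 was at 1.18, 1.61 and 1.55 TPM in wild type and at 6.15, 5.28 and 5.51 TPM in the knockout (difference 1.44, adjusted p = 0.0792), and the retinol carrier gene rbp4 at 1142, 905 and 1177 TPM against 1379, 1364 and 1348 TPM (difference 0.35, adjusted p = 0.149). Both genes separated the groups, as did 15.8% of all tested genes, and the short-day list median was 0.02.

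Markers of most other cell types lay nearer to the background, except the photoreceptor and pineal list, whose median of 0.35 exceeded those of the vascular and retinoid lists. Of 15 myelin and oligodendrocyte genes 13 were higher, with a median of 0.16 and overlapping summed levels of 892 to 1212 and 1061 to 1253 TPM. Pan-neuronal genes had a median of 0.03 and radial glial genes of 0.02, and both medians changed sign to -0.01 with median-ratio scaling. Of 69 cytosolic ribosomal protein genes 55 were lower, by a median of -0.05, which became 0.05 without wild-type replicate 13. The microglia and leukocyte list went both ways, with 3 of 8 members higher, 5 lower, a median of -0.06 and 3 at an unadjusted p under 0.05. The B cell receptor gene cd79a differed by 0.92 (adjusted p = 0.169) and the leukocyte phosphatase gene ptprc by -0.47 (adjusted p = 0.342). In the same list cd74, of the antigen presentation pathway, was at 404, 298 and 286 TPM in wild type and 207, 251 and 224 TPM in the knockout (difference -0.52, adjusted p = 0.141), while the microglial p2ry12 stood at 20.3 to 22.0 TPM in all 6 libraries. In the hypothalamic peptide list, with a median of -0.04, the oxytocin-family gene oxt was at 320, 444 and 462 TPM against 82.2, 236 and 247 TPM (difference -1.25, adjusted p = 0.197). The oxt groups did not overlap, and its short-day difference was -1.32. The muscle list had 5 tested members, 3 higher and 2 lower with a median of 0.06, of which myoglobin, mb, was at 45.6 to 81.2 TPM in wild type and 107 to 148 TPM in the knockout (adjusted p = 0.220). The summed level of the muscle list was 63.9 to 107 TPM in wild type and 139 to 173 TPM in the knockout, without overlap, and mb made up most of that sum. Of 8 photoreceptor and pineal genes 5 were higher, and 3 lower, with a median of 0.35 and summed levels of 10.8 to 17.4 TPM in wild type and 18.9 to 27.2 TPM in the knockout. That median ranged from 0.08 to 0.46 without each long-day library in turn. The part of these cell type markers in the genes called above was not tested.

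**Figure D4:**
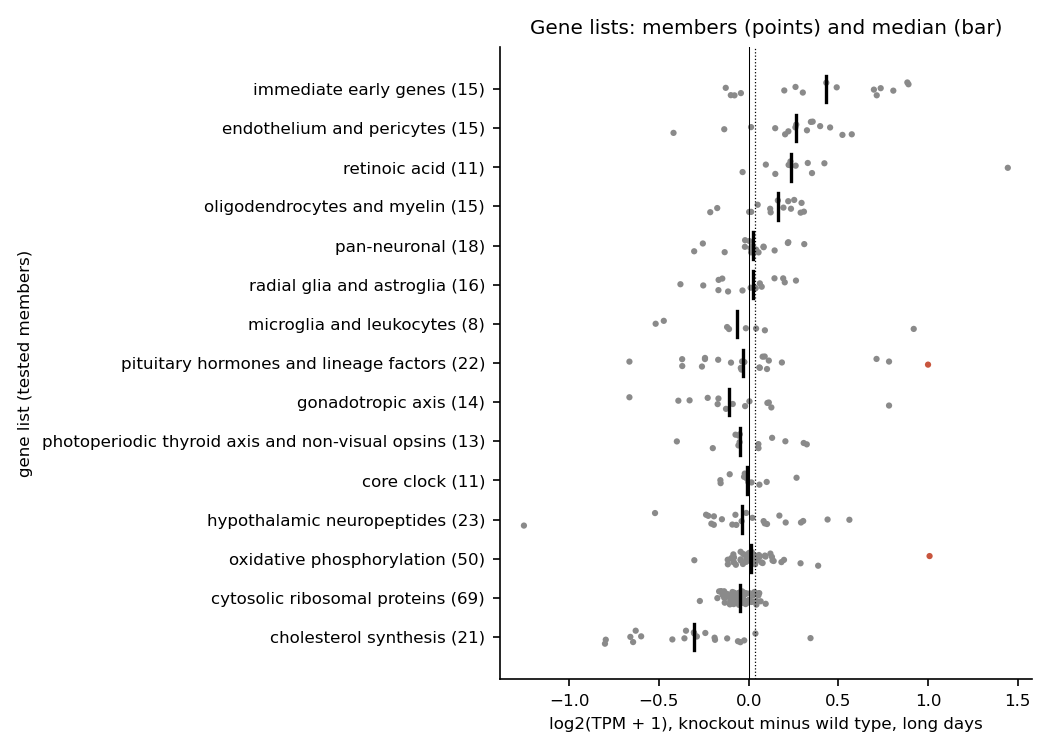
Each point is 1 tested member of a gene list, placed by its difference in log2(TPM + 1), knockout minus wild type under long days, with the list median as a bar, the median of all tested genes as a dotted line and called genes in red. Immediate early genes have the highest median of the 15 lists shown, 0.43, and cholesterol synthesis genes the lowest, -0.30.

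Called genes lay near each other along the reference's gene order. Of the 117 called genes, 32 (27.4%) were within 5 tested genes of another called gene, against 5.31% of the 18101 genes that were not called. As direct neighbours the shares were 13.7% and 1.18%. The neighbours formed 20 pairs, and in 19 of them both genes moved the same way. Genes such as ubxn6 and cmtm6 entered repeatedly, so the pairs are not separate. Of the 117 calls 86 were higher, and the share of same-direction pairs among called genes at large was not computed. Direct neighbours included LOC110015663 and LOC101164984, which differed by 3.41 and 2.36, fyco1 and ghrhr, by 3.45 and 1.00, and ubxn6 and uap1, by 1.61 and 1.33. Gene ptpdc1 lay 3 tested genes from hdac11, asic4 was the neighbour of gmppa, a mannose pathway gene, and cdk2ap2 that of aip, a chaperone of the aryl hydrocarbon receptor. The zinc finger gene znf408, which rose from 6.34 ± 0.73 to 13.9 ± 2.99 TPM (adjusted p = 0.0233, and up to 0.0890 without a library other than knockout replicate 14), lay 4 tested genes from LOC111946846, and c20h8orf59 lay 3 from LOC111946676. Among falls, arfrp1 and pik3c2b were 5 tested genes apart. The exception was LOC101170091, lower by -1.40, beside LOC111947635, higher by 2.51. The gene order comes from the assembly ASM223467v1, while the sources used here do not name the build behind the levels. Overlapping neighbours could share reads, which was not tested.

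The short-day libraries repeat the genotype comparison in brains that share no library with the long-day groups, apart from the common estimate of the spread. Under short days 121 genes passed (0.664%), 53 higher and 68 lower. In both photoperiods 26 genes were called, all in the same direction, or 22.2% of the long-day and 21.5% of the short-day calls. Of the 117 long-day calls, 97 (82.9%) had the same sign under short days, against 54.7% of all tested genes. The counts were 71 of the 86 higher genes and 26 of the 31 lower genes. Over these 117 genes the long-day and short-day differences had a Pearson correlation of 0.821 and a Spearman correlation of 0.767, given as a description. Over all tested genes the Pearson correlation was 0.357. The 117 were chosen by their long-day values, and for 102 of them the short-day difference was smaller in size. For 59 of the 117 the 3 short-day knockout libraries lay wholly on the same side of wild type as under long days, and for 3 on the opposite side. The share of all tested genes without overlap was computed for long days alone, at 15.8%. The short-day counts of 59 and 3 thus lack a background of their own and are no result about the 117 genes. Shared calls with a symbol included c20h8orf59, sowahc, usp12, arf4, naa50 and hacd1.

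**Figure D5:**
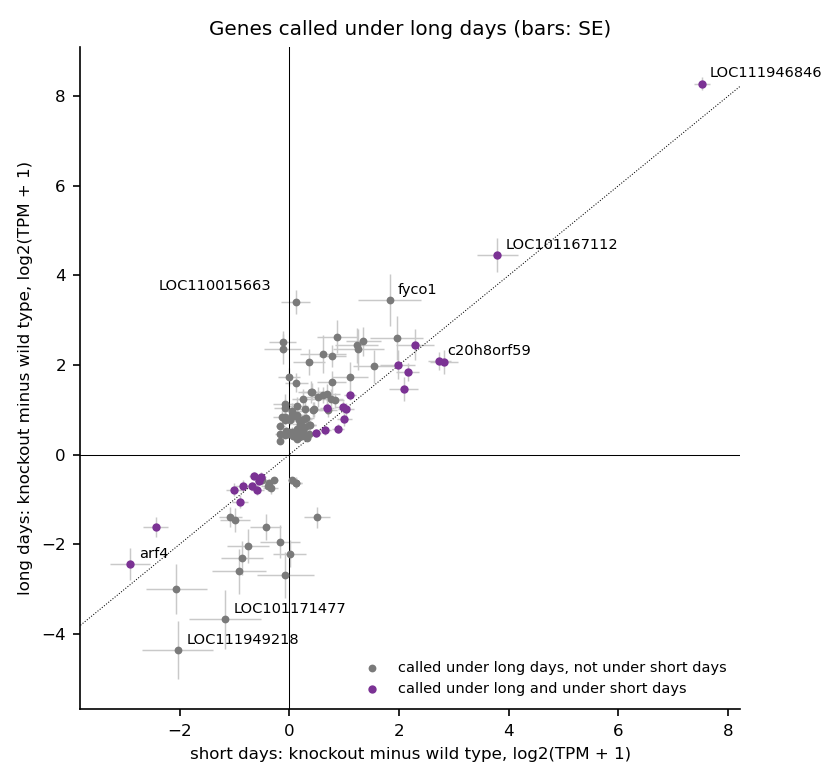
Each of the 117 genes called under long days is placed by its difference in log2(TPM + 1), knockout minus wild type, under short days (horizontal) and long days (vertical), with bars for the SE and a dotted line of equality. The 26 purple genes were also called under short days, and LOC110015663 lies at 3.41 under long days and near 0 under short days.

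The difference between photoperiods was itself tested, and 1 gene passed (0.00549% of those tested). LOC110015663, a protein-coding gene without a symbol, stood at 0.29, 0.71 and 0.34 TPM in long-day wild type and at 11.8, 22.2 and 10.9 TPM in the long-day knockout (log2 difference 3.41, SE 0.26, adjusted p = 0.000307). In the 6 short-day libraries it did not exceed 0.78 TPM. The long-day knockout libraries were thus the sole ones with an appreciable level, and the difference between photoperiods was 3.29 (adjusted p = 0.0330). Its direct neighbour LOC101164984 was also called under long days, at a mean of 0.387 TPM in wild type and 6.10 TPM in the knockout. For genes such as hdac11, asic4 and sbds, with small short-day differences, the interaction did not pass (adjusted p = 0.132, 0.132 and 0.130), so a difference between photoperiods was not established for them.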

How the data were processed

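Per the labels' protocols, libraries were paired-end and strand-specific, made from poly-A RNA. STAR 2.7.9a and RSEM 1.3.1 are named in the submitters' processing notes, with no role stated, and the genome build is not given in the sources used here. The deposited values are TPM per gene and library, made by the authors, with each column summing to about 1000000. All 26663 gene IDs matched the RefSeq gene table of ASM223467v1, used for symbols, class and gene order.

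Differences were tested in 1 limma fit (version 3.58.1, R 4.3.3) of 4 group means over 12 libraries on log2(TPM + 1), with a trend in the prior variance. Tests were two-sided, with Benjamini-Hochberg adjustment over 18218 genes. The pseudocount of 1 understates the change of low genes. Differences are knockout minus wild type. "Rose", "fell" and "called" mean an adjusted p under 0.05. The fit was tested on simulated data.

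Named genes were the 15 largest rises and 15 largest falls with a symbol and no overlap, the 10 smallest p, up to 4 called per list, up to 6 rising and 6 falling LOC genes, the interaction calls, and a fixed set of genes, mainly of reproduction, thyroid and clock, named whatever their result. Of that set tshr matched no symbol, and 1 called gene that the rule selects is not reported here. Members and lists were chosen with earlier results of these data known. Alternatives changed 1 choice at a time.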

Additional observations from a re-analysis of the deposited data

Results flagged for a closer look

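For LOC110015663 the difference between knockout and wild type was unlike in the photoperiods by a direct test. It was 3.29 larger on the log2 scale under long days than under short days (limma interaction, adjusted p = 0.0330), with 3 of 3 long-day knockout libraries above all other libraries of the series. The gene entered the tests through its long-day knockout libraries alone. The interaction call was lost without any 1 of the long-day wild-type libraries or without short-day wild-type replicate 1 or 2, and it was the sole call of its test. The strain of the fish is not given, and whether the genotypes differ at other genes was not tested.

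The genes f13a1 and fshb separated the genotypes in opposite directions. The long-day knockout libraries of f13a1 all lay above wild type and the short-day knockout libraries, at 2.98, 0.17 and 1.52 TPM, all lay below wild type, at 12.8, 5.15 and 3.37 TPM. Its difference between photoperiods was 2.67 and did not pass (adjusted p = 0.298). For fshb the order was the reverse, with short-day knockout libraries at 206, 163 and 183 TPM above wild type and long-day knockout libraries below it. The short-day wild-type libraries were at 122, 115 and 31.4 TPM, so the low replicate 3 enlarges the short-day difference. The difference between photoperiods was -1.91 and did not pass (adjusted p = 0.413).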

How the results depend on the processing

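The 117 long-day calls (86 higher, 31 lower) became 72 (53 and 19) with no trend in the prior variance and 383 (264 and 119) with array weights. Leaving out 1 library gave 43 to 91 calls, 32 to 59 higher and 9 to 37 lower. The counts were 51, 51 and 43 without wild-type replicates 13, 14 and 15, 43 and 57 without knockout replicates 14 and 16, and 77 without short-day wild-type replicate 3, which enters the spread alone. Other settings gave 79 to 139 calls. Fitted alone, the 2 long-day groups gave 139, of which 73 were among the 117. The short-day count of 121 became 74 with its 2 groups alone and 27 to 95 without 1 library. The single interaction call became 0 with a pseudocount of 0.1 or the stricter filter, 6 with the looser filter, 5 with no trend, 9 with array weights and 0 to 6 without 1 library.

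Numbers 13 and 14 are shared by the long-day genotypes, but same-numbered libraries did not deviate together (correlations of -0.05 and -0.00), so they were not treated as pairs. Under short days the same-numbered replicates 1 and 3 had correlations of 0.08 and 0.09, the highest of that photoperiod. A long-day combination of unlike numbers, wild-type 14 with knockout 13, also had 0.09. With the number as a replicate block 6 genes passed under long days (5 higher, 1 lower), 6 under short days and 0 for the interaction. In that fit only the libraries numbered 13 and 14 informed the long-day contrast, and little was left to estimate the spread. The fall in calls therefore does not show whether the numbers mark pairs.

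Of 46 named calls, 18 held without each long-day library and short-day wild-type replicate 3 in turn, 3 held with the replicate block, and 40 held with the 2 long-day groups alone. Those lost in the last were znf408, ndufs1, hacd1, dnajc25, LOC101158597 and LOC111946738 (adjusted p = 0.0609, 0.0736, 0.0919, 0.0886, 0.0586 and 0.116). Signs turned for 6 genes that were not called. With array weights these were fech (0.026), cga (-0.069), dio3 (0.10), esr1 (0.041) and dio2 (0.038), and with the block rsad2 (0.18). Without 1 library the difference ran from -0.14 to 0.017 for fech, from -0.069 to 0.34 for cga, from -0.20 to 0.083 for dio3, from -0.43 to 0.032 for rsad2, from -0.12 to 0.097 for esr1 and from -0.13 to 0.099 for dio2. List medians were recomputed after the data were seen. Without each long-day library in turn they ran from 0.24 to 0.36 for endothelium, and from -0.34 to -0.23 for cholesterol synthesis. Depth is unknown, so the number of libraries sets what can be detected.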

Other observations

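Some lists not described above are given here beside the background, a median of 0.04 with 58.97% of all tested genes higher. Of 28 tested genes of glycolysis and pyruvate use 22 were higher in the long-day knockout, and the mean log2(TPM + 1) of the list was 5.52 to 5.57 in wild type and 5.62 to 5.67 in the knockout, without overlap. The summed levels overlapped, at 5358 to 5878 TPM in wild type and 5562 to 5884 TPM in the knockout. The list's median was 0.08. With median-ratio scaling the median was 0.04 and 19 members were higher. In the glycerolipid, fatty acid and lipoprotein list 24 of 39 members were higher, close to the share of all genes, with a median of 0.08 and 8 members at an unadjusted p under 0.05. Of 7 coagulation and wound protein genes, 4 were higher and 3 lower, with a median of 0.15 and f13a1 the highest at 1.01. These 3 lists held 0 calls by limma, and 4 glycolysis genes and 1 coagulation gene reached an unadjusted p under 0.05. Over all tested genes, 2051 of 18218 reached that p.

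Chaperone and stress genes held both a rise and a fall. Of 79 tested members 54 were higher, with a median of 0.07, and 15 reached an unadjusted p under 0.05, against 2051 of 18218 over all genes. With median-ratio scaling 48 were higher, with a median of 0.03. The called members were dnajc25, which rose, and chac1, which fell. Interferon and antiviral genes had a median of 0.07 over 7 members under long days, where the summed level was 37.2 to 44.0 TPM in wild type and 41.1 to 50.9 TPM in the knockout.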
